A study of Mus musculus with 30 samples.

Results

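The cytoplasmic ribosomal protein genes were followed across 30 RNA sequencing libraries. The cells were dendritic cells that had differentiated from bone marrow of mice under the cytokine FLT3L. A row of the deposited count table belonged to the set when its symbol began with Rpl or Rps and a digit, or was Rplp0, Rplp1 or Rplp2, with the Rps6k kinases left out. This rule found 95 of 25611 rows. They were divided into 76 canonical genes (43 of the large subunit, 30 of the small subunit and 3 of the stalk) and 19 rows set apart as copies, "-like" paralogs, pseudogenes or, in 1 case (Rps19bp1), a binding protein. Of the canonical genes 75 had enough reads to be tested, and of the rows set apart 15; the gene that was not tested among the canonical was Rpl26, and Rpl31-ps12, Rpl34-ps1, Rplp2-ps1 and Rps27rt were not tested among the others.

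Cells carried a Rubcn knockout (KO) or were wild type (WT). Rubcn encodes Rubicon, a protein needed for LC3-associated phagocytosis, and the series concerns this non-canonical autophagy and cross-presentation. All cells had been cultured for 6 to 7 days with FLT3L at 200 ng/ml, and were untreated, or were given ovalbumin (OVA) or Jurkat cells made apoptotic. Jurkat is an established leukaemia line of human T cells. Treatments lasted 30 min or 4 h, which with both genotypes makes 10 groups of 3 libraries. The labels give neither the allele, nor the age or number of mice, nor whether libraries of a group came from separate mice, so p-values measure only the spread between these libraries. Libraries of the groups given Jurkat cells may hold RNA of both species.

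The ribosome is built from ribosomal RNAs and a full set of ribosomal proteins, most of them present in a single copy, so the cell makes these proteins in matched amounts. Their mRNAs are short, abundant and long-lived, and begin with a pyrimidine-rich tract (the 5′ terminal oligopyrimidine, or TOP, tract) through which growth signals acting by mTOR and LARP1 control their translation as a group. Dendritic cells that respond to a stimulus are known to change protein synthesis, in part through this control, which a count of mRNA does not show.

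Total counts ranged from 9734778 to 51642601 per library, and the KO library 3 of OVA at 30 min was the shallowest. Rubcn itself was below WT in the KO libraries of each condition without overlap. In untreated cells it stood at 70.4 to 75.8 against 95.6 to 104.6 CPM (counts scaled to library size with TMM factors). Its counts over the whole gene remained, so they check the labels only in part. The summed level of 15 dendritic cell genes was between 20870 and 23190 CPM in the 24 libraries other than those of Jurkat cells at 4 h, where it was 30720 to 34780. Single genes of the list went both ways there, 7 higher and 8 lower in WT and 7 and 7 in KO, and Cd74 alone went from 9258 to 17070 CPM in WT. The KO library 2 of Jurkat cells at 4 h stood apart from its replicates. A chi-square statistic per gene was 129 and 134 between it and the other two, against at most 16.7 in any other pair of replicates, and its 10 highest genes held 10.6% of counts, against 7.40% and 7.42%.

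The canonical genes together took 4.06% to 4.87% of all counts in the 24 libraries other than Jurkat 4 h. In the Jurkat 4 h groups their share was 2.86%, 3.06% and 3.24% in WT and 3.04%, 3.17% and 3.17% in KO, and no library of these overlapped any other. The drop was smaller on another scale. TMM factors of the Jurkat 4 h libraries were 0.765 to 0.842, against 1.03 to 1.07 elsewhere, and on the TMM scale the summed level was 37440 to 40320 CPM in WT at 4 h with Jurkat cells and 40220 to 43140 CPM in untreated WT. The highest treated library was above the lowest untreated one. In KO the groups did not overlap, at 36240 to 37880 CPM against 41070 to 44580 CPM. In bulk samples fewer cells of a type and less RNA per cell cannot be told apart.

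**Figure D1:**
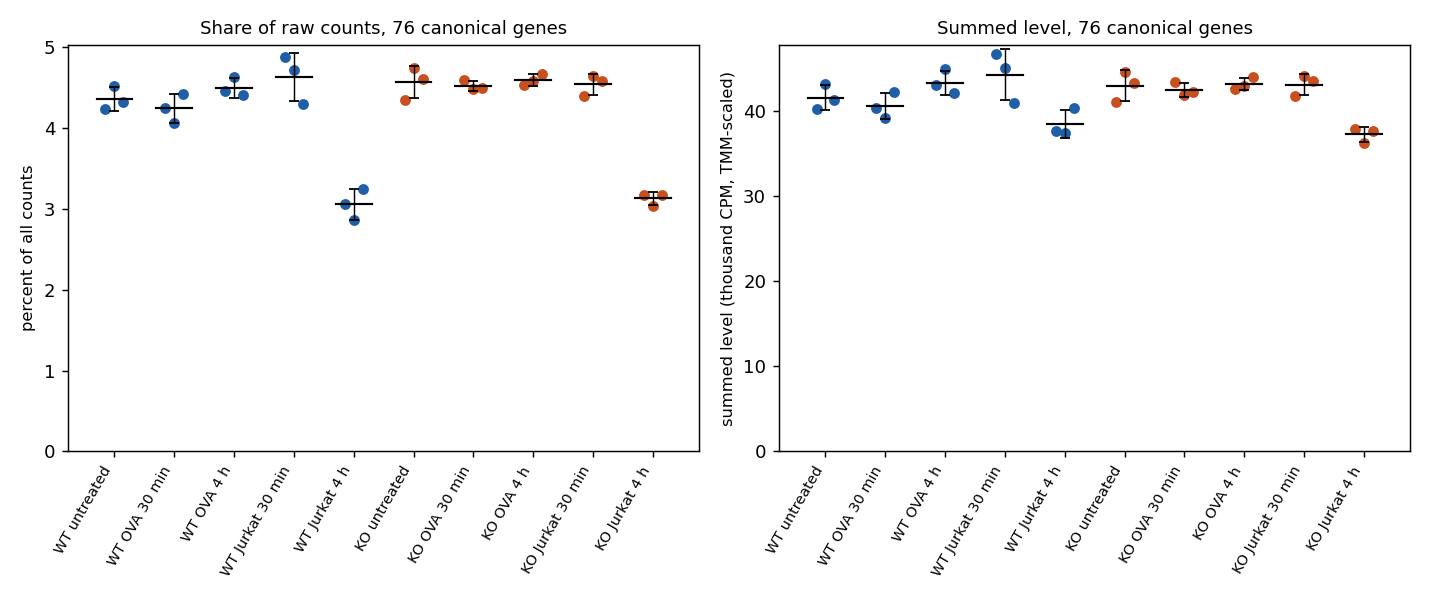
Share of raw counts (left, percent) and summed TMM-scaled level (right, CPM divided by 1000) of the 76 canonical ribosomal protein genes in each library, by group. Points are libraries, the long bar is the mean and the error bar the SD over 3 libraries. All 6 libraries given Jurkat cells for 4 h lie at or below 3.24% of counts, and all others at or above 4.06%.

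Canonical genes were among the most abundant transcripts. The median of their mean levels was 512.1 CPM, against 20.99 CPM over all 14808 genes tested, and 56 of the 75 were among the 500 highest genes. Rpl4, a large-subunit protein of the exit tunnel, held the most counts, with 1775 CPM on average. It was followed by Rplp0, the base of the stalk that recruits translation factors, with 1711 CPM, and by Rps3, of the mRNA entry site, with 1324 CPM. Corrected for transcript length, the highest were Rplp1, a stalk protein, with 1697 CPM per kb and Rps12, of the small-subunit head, with 1572 CPM per kb. Rps15, also of the head, had 1420 CPM per kb. Length was that of 1 GENCODE transcript chosen per gene. Some of these were long, such as 3706 bases for Rps20 and 1908 bases for Rps3, so values per kb depend on that choice.

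At the other end, 4 canonical genes were nearly or wholly without counts. Rpl26 had 0 counts in all 30 libraries. Rpl30 averaged 0.85 CPM, Rps27 1.56 CPM and Rpl34 2.06 CPM, while the next lowest canonical gene lay at 136.5 CPM. All 4 encode proteins of the core ribosome. These 4 were also the only canonical genes of which at least 50% was covered on the same strand by another row of the table. Rpl26 (mm10 chromosome 11, 68901566 to 68904534, plus strand) was covered over 99.2% of its interval by Gm15772. Rpl30 (chromosome 15, 34440508 to 34443276, minus strand) was covered over 98.4% by Gm12191. Rpl34 (chromosome 3, 130726827 to 130730398, minus strand) was covered over 97.8% by Rpl34-ps1, and Rps27 (chromosome 3, 90212667 to 90213648, minus strand) over 99.9% by Rps27rt. The covering rows were almost empty too, with 2 counts in all for Gm12191 and 0 for the other 3. The other 72 canonical genes averaged 136.5 to 1775 CPM. How the counting assigned reads that fall on both rows is not given in the sources used here, and the part of the overlap in the low levels was not tested. The level of these 4 genes is therefore uncertain, and so is every fold change of Rpl30, Rps27 and Rpl34 below. Sequence shared with other genes was also counted. A median of 56.5% of the 50-base words of a canonical transcript also occurred in another GENCODE gene, and over the 76 genes the Spearman correlation of the unique share with CPM per kb was 0.06, given as a description. Of the 4 low genes Rps27 shared 98.6% of its words, Rpl26 71.3%, Rpl34 50.6% and Rpl30 47.8%, and the part of shared sequence in their low levels was not tested.

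KO and WT cells were compared in each condition to ask whether loss of Rubicon altered the set. Differences were small everywhere and changed sign between conditions. In untreated cells the median log2 fold change of KO over WT was 0.05 over the 75 canonical genes and -0.01 over all genes. A single canonical gene passed the test, Rplp2 (edgeR quasi-likelihood test, Benjamini-Hochberg FDR under 0.05), where 9.97% of all genes tested passed, 6.00% higher and 3.97% lower. Rplp2, a stalk protein, stood at 478, 549.6 and 556 CPM in KO and at 434, 474 and 486 CPM in WT. The lowest KO library fell between WT libraries, so the groups overlapped. The log2 fold change was 0.18 (SE 0.0587, FDR 0.0446), and the call was lost without either of WT libraries 1 and 2 or KO libraries 2 and 3.

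After 30 min of OVA 5 canonical genes were higher in KO and none lower, or 6.67%, where 12.4% of all genes were called, 6.25% higher and 6.13% lower. Among them were Rpl28, Rps20, Rps16 and Rps2, and the median over the 75 genes was 0.07. Rpl28, a large-subunit protein, stood at 449, 435 and 453 CPM in KO and 368, 387 and 418 CPM in WT. All KO libraries lay above all WT libraries, with a log2 fold change of 0.19 (SE 0.0539, FDR 0.0203). The count of 5 rested on single libraries: it was 10 without WT library 3, 1 without KO library 2 or 3, and 0 without KO library 1, WT library 1 or WT library 2.

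With Jurkat cells at 30 min the sign was the other way. A set of 6 genes was lower in KO and none higher, where 9.25% of all genes were called, 5.58% higher and 3.67% lower, and the median was -0.05. The 6 were Rpl36, Rps21, Rpl27, Rpl35a, Rps10 and Rpl24. Rps21, a small-subunit protein, stood at 381, 412 and 403 CPM in KO and 479, 489.8 and 435 CPM in WT without overlap (log2 fold change -0.23, SE 0.0534, FDR 0.00551). Rpl36 stood at 165, 183 and 186 CPM in KO and 219, 213 and 194 CPM in WT, again without overlap (-0.23, SE 0.0579, FDR 0.0105). Here too the count moved with the libraries. It was 12 without WT library 3, 3 without KO library 3, 2 without KO library 1 or WT library 1, and 0 without WT library 2.

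At 4 h of OVA no canonical gene differed between KO and WT by edgeR, with 2 at an unadjusted p under 0.05 and 0 by DESeq2's test, where 12.6% of all genes passed, 6.22% higher and 6.35% lower. At 4 h of Jurkat cells 3 genes were lower in KO by edgeR, or 4.00%, where 22.9% of all genes were called, 9.37% higher and 13.5% lower. They were Rps24, Rps15a and Rpl24. Under scaling to total counts no canonical gene was lower in KO and 4 were higher. Rps24 stood at 679, 687 and 689.6 CPM in KO and 753, 774 and 827 CPM in WT, without overlap (-0.20, SE 0.0665, FDR 0.0323). Rps15a stood at 438, 438 and 452 CPM in KO and 478, 495 and 483.5 CPM in WT (-0.13, SE 0.0454, FDR 0.0330). The count of 3 fell to 0 without KO library 2, the library that stood apart, or without WT library 3, and to 1 without KO library 3 or WT library 2.

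Over the 5 conditions 14 canonical genes were called in KO against WT at least once, or 18.7%, against 37.1% of all genes tested. Rpl24 was the only canonical gene called in 2, at both times of Jurkat cells, and none was called in more, where 14.2% of all genes were called in 2 or more in the same direction. Other cell types differed between the genotypes in the same libraries. Of 8 basophil and mast cell genes 7 were higher in KO in untreated cells, with a summed level of 195 to 223 CPM against 148 to 159 CPM in WT, and their defining gene Mcpt8 averaged 17.1 CPM in KO and 3.57 CPM in WT. Of 8 stromal genes 5 were higher, with a sum of 824 to 1063 CPM against 663 to 745 CPM. The part of these cells in the differences of ribosomal protein genes was not tested.

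**Figure D2:**
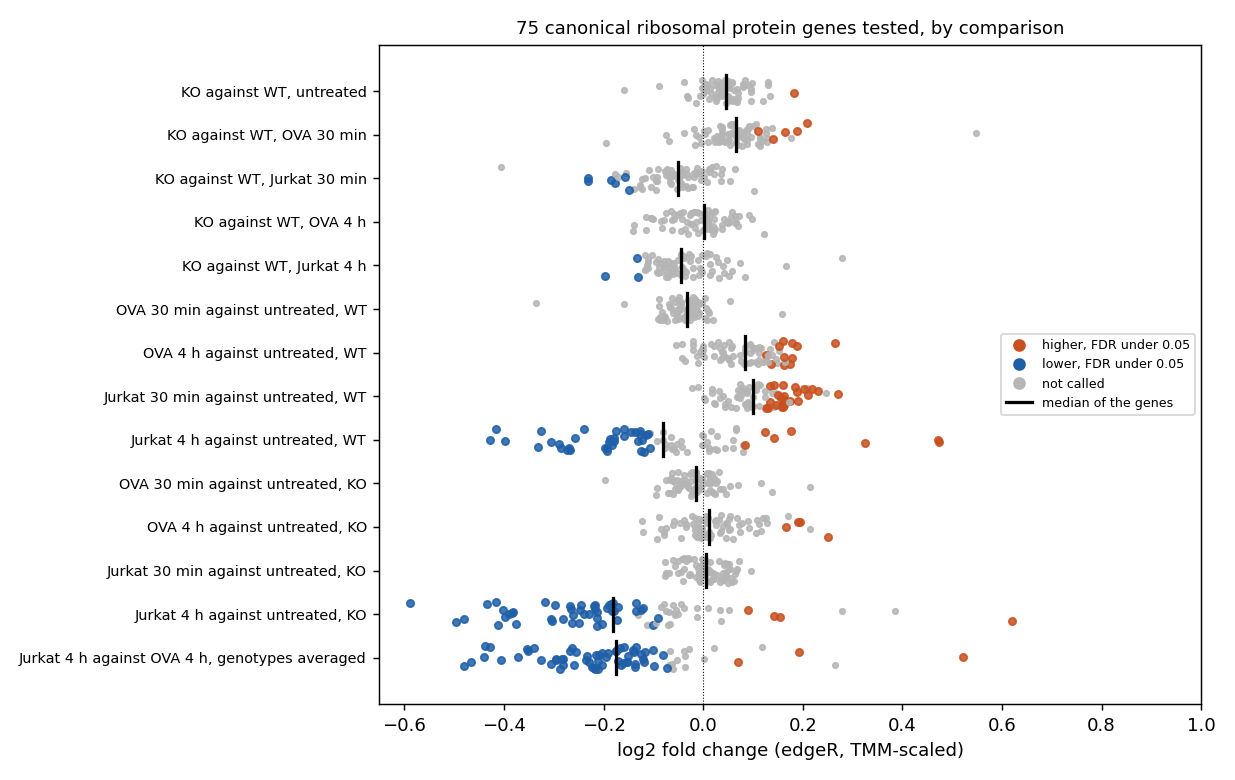
Log2 fold changes of the 75 canonical ribosomal protein genes tested, 1 row per comparison; each point is a gene, coloured by its edgeR call, and the black bar is the median of the genes. Differences between KO and WT centre within 0.07 of 0, whereas with Jurkat cells at 4 h most genes lie below 0 in both genotypes.

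The treatments were next compared with untreated cells of the same genotype, and these comparisons share their untreated libraries. With OVA at 30 min no canonical gene was called in WT or in KO by edgeR or by DESeq2's test, with 0 and 2 at an unadjusted p under 0.05 by edgeR. Of all genes 10.7% were called in WT, 5.51% higher and 5.15% lower, and 3.77% in KO, 1.88% in each direction. At 4 h of OVA 11 canonical genes were higher in WT and none lower, or 14.7%, where 23.5% of all genes were called, 11.9% higher and 11.7% lower, and the median was 0.08. In KO 4 were higher and none lower, or 5.33%, where 11.6% of all genes were called, 5.94% higher and 5.69% lower, and the median was 0.01. The largest rise in WT was that of Rpl41, a very short basic peptide at the subunit interface. It stood at 360.5, 402 and 369.7 CPM after OVA and 303, 323 and 316 CPM in untreated WT, with no overlap (log2 fold change 0.26, SE 0.0599, FDR 0.00152). Rps14 followed at 885, 968 and 841 CPM against 752.5, 837 and 776 CPM (0.19, SE 0.0597, FDR 0.0219). The KO genes were Rps19, Rpl27, Rps21 and Rps28. Rps19, of the small-subunit head, stood at 412, 411 and 434 CPM against 331, 361 and 364 CPM in untreated KO (0.25, SE 0.0524, FDR 0.00148). Rpl27 stood at 178, 174 and 185.5 CPM against 151, 162 and 156 CPM (0.19, SE 0.0446, FDR 0.00383). The count of 11 in WT was 1 without WT untreated library 1 or OVA library 2, 2 without untreated library 3 and 4 without OVA library 1. The count of 4 in KO was 2 without OVA library 1 or 3. Other cell markers moved too: in WT 4 of 7 monocyte and macrophage genes rose, with sums of 3324 to 3577 CPM against 2739 to 2942 CPM, and 2 of 8 stromal genes. In KO 1 and 2 rose. Their part in the result was not tested. The genotype difference of this response passed for no canonical gene by edgeR, with 3 at an unadjusted p under 0.05 and 0 by DESeq2's test, where 0.0405% of all genes passed, all of them lower (0.00% higher).

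Jurkat cells at 30 min went with a small rise in WT. Of the 75 genes 24 were higher and none lower, or 32.0%, where 28.7% of all genes were called, 14.2% higher and 14.5% lower, and 73 of 75 had a positive fold change, with a median of 0.10 against 0.01 over all genes. In KO no gene was called, by edgeR or by DESeq2's test, with 0 at an unadjusted p under 0.05, where 17.0% of all genes passed, 8.72% higher and 8.26% lower, and the median was 0.01. The difference between these responses was not tested. In the same libraries 13 of 23 T-lineage genes tested rose in WT and 12 in KO, with sums given further down, and their part in the result was not tested. In WT Rpl41 stood at 402, 386 and 350.4 CPM against 303, 323 and 316 CPM untreated (log2 fold change 0.27, SE 0.0599, FDR 0.00105). Rps21 stood at 479, 489.8 and 435 CPM against 387, 413 and 396 CPM (0.23, SE 0.0534, FDR 0.00172). Both genes were without overlap, and in both the lowest treated library was library 3. That library had a median deviation of -0.11 (log2) from its group over the 75 genes, with 72 of them below the group mean, while library 1 stood at 0.08. The count of 24 was 38 without library 3, but 10 without library 2 and 6 without library 1, and 10 without untreated library 1 or 3.

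Jurkat cells at 4 h gave the most calls against untreated cells, among canonical genes and among all genes alike. In WT the median of the canonical genes relative to that of all genes was -0.060. That was smaller in size than 0.091 at 30 min of Jurkat cells and 0.085 at 4 h of OVA. In KO it was -0.147. In WT 35 canonical genes fell and 7 rose, or 56.0% called, against 79.5% of all genes. In KO 47 fell and 4 rose, or 68.0%, against 78.5%. By direction 46.7% of the canonical genes fell in WT and 62.7% in KO, against 40.6% and 41.0% of all genes, and 38.9% and 37.5% of all genes rose. The sizes were small: the median log2 fold change was -0.08 in WT and -0.18 in KO, against -0.02 and -0.03 over all genes. All 35 genes that fell in WT were among the 47 of KO (100% of the WT and 74.5% of the KO genes). The matching overlap over all genes, most of which were called in each genotype, is not given here. The 4 that rose in KO, Rpl34, Rplp2, Rps19 and Rps2, also rose in WT, and no gene was called in opposite directions. Over the 75 genes the log2 fold changes of the 2 genotypes, which share no library, had a Pearson correlation of 0.90, given as a description across genes. The genotype difference of this response passed for none of the 75 genes by edgeR, with 13 at an unadjusted p under 0.05 and 2 by DESeq2's test, where 4.26% of all genes passed, 1.72% higher and 2.55% lower. Without KO library 2, the one that stood apart, 42 genes fell and 5 rose in KO. Other cell markers moved in the same libraries. Of 23 T-lineage genes tested 20 rose and 3 fell in WT, and 17 rose and 4 fell in KO. Of 8 stromal genes 6 rose in WT and 7 in KO, with summed stromal levels of 939 to 1433 CPM against 663 to 1063 CPM untreated. Their part in the result was not tested.

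The counts at 4 h of Jurkat cells depended on the scaling. With total counts in place of TMM factors, 72 of 75 canonical genes fell and none rose in either genotype, and the median over all genes was itself -0.42 in WT and -0.37 in KO. With DESeq2's size factors 22 fell and 13 rose in WT, and 38 fell and 6 rose in KO. Relative to the median of all genes, the median of the canonical genes was -0.06 in WT under TMM factors, DESeq2's size factors and total counts, and -0.15 in KO under all 3. Scaling shifts all genes of a library alike, so this agreement was close to fixed in advance and adds no support.

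By subunit, 22 of 42 large-subunit genes (52.4%) and 13 of 30 small-subunit genes (43.3%) fell in WT, where 40.6% of all genes fell. The small-subunit share in WT was thus near that of all genes. In KO 28 (66.7%) and 17 (56.7%) fell, where 41.0% of all genes fell. The large-subunit medians were -0.12 in WT and -0.21 in KO, and the small-subunit medians were -0.06 and -0.15. Rpl3 (chromosome 15, 80077781 to 80083406, minus strand), a large-subunit protein that reaches towards the peptidyl transferase centre, fell most. It stood at 819, 874 and 838 CPM in untreated WT and 619, 611 and 651 CPM after Jurkat cells, and in KO at 829, 907 and 884 CPM and then 605, 561 and 575 CPM. The log2 fold changes were -0.43 (SE 0.0434, FDR 4.0e-10) and -0.59 (SE 0.0435, FDR 4.0e-13). With OVA for 4 h it stayed at 793 to 837 CPM in the 6 libraries. Rpl13a, a large-subunit protein that is also known to be released from ribosomes and to repress inflammatory mRNAs, stood at 1285, 1431 and 1400 CPM in untreated KO and 974, 952 and 991 CPM after Jurkat cells (-0.50, SE 0.0569, FDR 4.9e-09). In WT it fell by 0.33. Rps6, the small-subunit protein phosphorylated by S6 kinases, fell by 0.11 in WT (FDR 0.00804) and by 0.24 in KO (FDR 8.4e-07). The WT call of Rps6 was lost with DESeq2's size factors (-0.046, FDR 0.244), with DESeq2's test (FDR 0.216), with a filter of at least 5 CPM in 3 libraries (-0.053, FDR 0.164) and in a fit of the compared groups alone (FDR 0.0633).

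Of the 3 stalk genes 2 fell and 1 rose in KO, and 1 rose in WT. Rplp0 fell by 0.13 in KO (FDR 0.00288) and had a fold change of -0.06 in WT (FDR 0.117). Its KO call was lost with DESeq2's size factors (-0.063, FDR 0.108), with DESeq2's test (FDR 0.0855) and with a filter of at least 5 CPM in 3 libraries (FDR 0.0793). Rplp1 fell by 0.13 in KO (FDR 0.0412) and had -0.03 in WT (FDR 0.621). Its KO call was lost under the same 3 settings (-0.072 to -0.076, FDR 0.242 to 0.259), in a fit of the compared groups alone (FDR 0.0709), and without Jurkat library 2 or 3 or untreated library 2 or 3. Rplp2 (chromosome 7, 141447650 to 141451342, plus strand) rose under TMM factors, but its direction turned under total counts, to -0.08 in WT and -0.19 in KO. It stood at 587, 530.2 and 629 CPM in WT after Jurkat cells, against 434, 474 and 486 CPM untreated (log2 fold change 0.32, SE 0.0588, FDR 1.2e-05). In KO it stood at 576, 575 and 611 CPM against 478, 549.6 and 556 CPM (0.15, SE 0.0587, FDR 0.0187), a call lost without KO library 3 or untreated library 1. Rpl34 and Rpl30 had the largest positive fold changes in WT, 0.47 each, at levels of 2.28 to 2.61 and 1.05 to 1.08 CPM, and both belong to the genes of uncertain count. Under total counts these were 0.071 for Rpl34 (FDR 0.675) and 0.070 for Rpl30 (FDR 0.758).

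Against OVA at the same time, with the genotypes averaged, 59 canonical genes were lower with Jurkat cells at 4 h and 3 were higher, or 82.7%, against 82.6% of all genes. By direction 78.7% of them were lower, against 43.2% of all genes lower and 39.4% higher. The 3 higher genes were Rpl34, Rplp2 and Rps2, and none was higher under total counts. The largest fall, -0.48 (SE 0.0402, FDR 4.8e-12), was that of Rpl13a, with 952 to 1089 CPM after Jurkat cells and 1306 to 1505 CPM after OVA. Rpl37, a zinc-binding large-subunit protein, had 253 to 277 CPM against 349.7 to 378 CPM (-0.47, SE 0.0383, FDR 3.2e-12). Neither gene overlapped between the treatments in either genotype. Without KO library 2 of Jurkat cells 58 genes were lower and 3 higher.

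**Figure D3:**
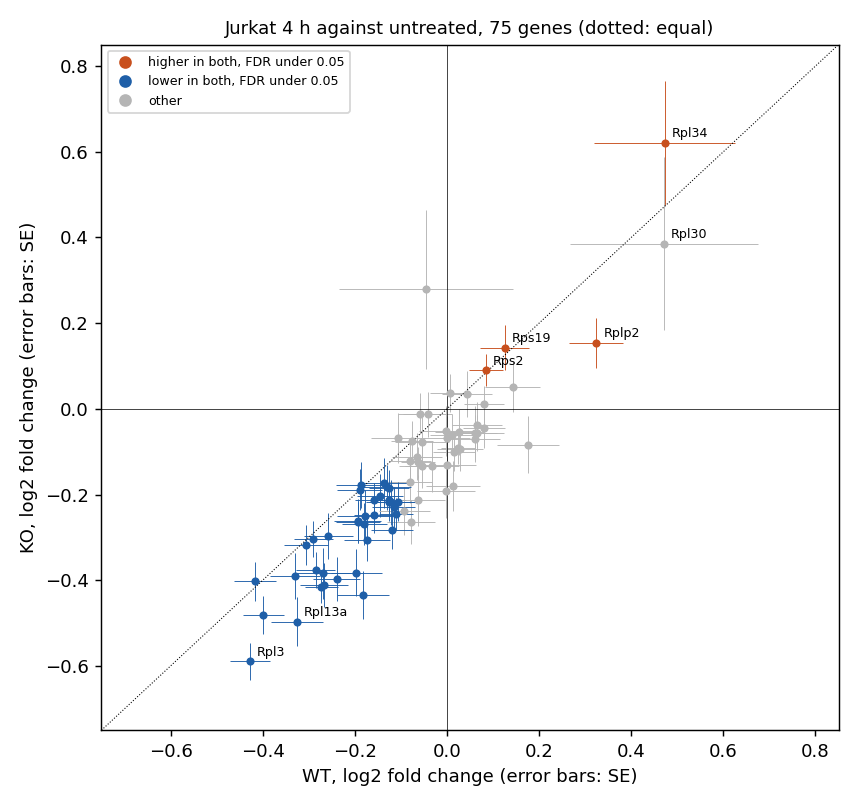
Log2 fold change with Jurkat cells at 4 h against untreated cells in WT (x axis) and KO (y axis) for the 75 canonical genes tested, TMM-scaled, with SE bars. The 35 genes lower in both lie below 0 on both axes, with Rpl3 at -0.43 and -0.59, and the 4 higher in both are orange; Rpl34 and Rpl30 rest on levels of a few CPM or less.

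Transcript length and level went with the signed log2 fold change in some comparisons and not in others. Over the 75 genes the Spearman correlation of transcript length with the log2 fold change at 4 h of Jurkat cells was -0.38 in WT and -0.44 in KO. The 38 longer genes had medians of -0.13 and -0.22, and the 37 shorter ones (under 705 bases) medians of -0.03 and -0.09. At 30 min of Jurkat cells in WT it was -0.46, and for KO against WT at that time 0.53; these 2 comparisons share the WT libraries. The Spearman correlation of the level in CPM with the fold change at 4 h was -0.27 in WT and -0.40 in KO. With OVA at 4 h the values were of like size, -0.38 in WT and -0.35 in KO for length and -0.37 and -0.42 for level. At 30 min of Jurkat cells in KO they were 0.18 for length and -0.09 for level. With OVA at 30 min they were 0.08 for length and 0.16 for level in WT, and 0.18 and -0.14 in KO. These are descriptions across genes, and the part of length or level in the changes was not tested. The length values depend on the transcript chosen for each gene.

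The start of these transcripts was examined for a pyrimidine run. The motif CTTTCC was searched on the sense strand from 30 bases before to 30 after the RefSeq start (GRCm38.p6). It was present in 11 of the 56 canonical genes with a promoter entry (19.6%) and in 3.4% of 27025 genes. On the antisense strand 1 of 56 held it, and 3.1% of all genes. The shorter CTTCC, which is not contained in CTTTCC, was in 33.9% of the canonical genes and 14.4% of all on the sense strand, and in 26.8% and 16.4% on the antisense strand. Stretches around the start are shown for 4 genes called in the comparisons above, with the motif in capitals, on the strand of the gene. Rpl13a lies at chr7:45128731-45128760, Rpl28 at chr7:4792950-4792979, Rpl35a at chr16:33056467-33056496 and Rps10 at chr17:27635230-27635259.
Rpl13a: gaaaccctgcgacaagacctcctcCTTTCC
Rpl28: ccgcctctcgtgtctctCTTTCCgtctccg
Rpl35a: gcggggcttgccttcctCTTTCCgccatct
Rps10: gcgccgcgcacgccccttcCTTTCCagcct
For the 11 genes with the motif the median of log2 fold changes was -0.19 in WT and -0.18 in KO at 4 h of Jurkat cells, and the 44 tested genes without it -0.08 and -0.18. A match is a description of these letters and not a mapped site.

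Within groups the canonical genes moved together. After removing group means, the median correlation between pairs of canonical genes over the 30 libraries was 0.77, and 99.6% of 2775 pairs were positive, with a lowest value of -0.36. A first principal component held 61.9% of their within-group variance, with loadings of the same sign for all 75 genes. Over all genes tested the first component held 15.3%. The sets differ in size and level (median levels of 512.1 and 20.99 CPM), and no matched set was examined for this share. In untreated WT, for example, library 2 was above the group mean for 75 of 75 genes and library 1 below it for 71. All genes of a library share its depth and its scaling factor. The median within-group SD was 0.0655 (log2) for the canonical genes and 0.0553 for the 1000 most abundant genes.

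**Figure D4:**
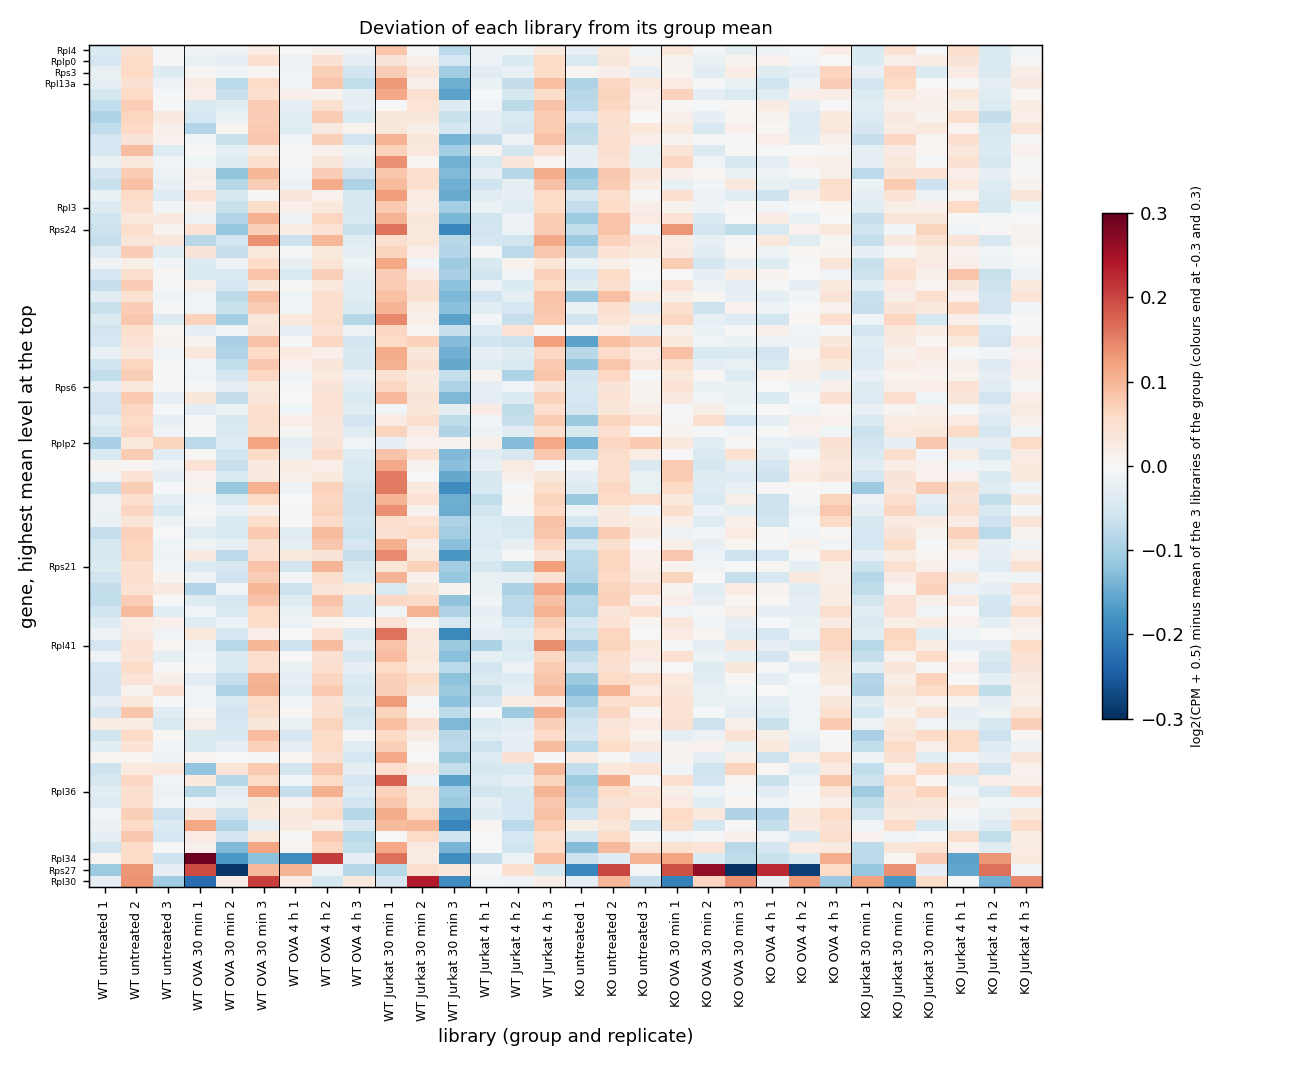
Deviation of each library from the mean of its group, as log2(CPM + 0.5), for the 75 canonical genes (rows, most abundant at the top) and 30 libraries (columns, 3 per group). Columns are nearly uniform in colour: WT Jurkat 30 min library 1 is above its group for 68 genes and library 3 below it for 72; the 3 lowest rows are Rpl34, Rps27 and Rpl30, and only some rows carry a gene name.

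Of the rows set apart, 5 rose with Jurkat cells at both times in WT. Rps27l, described further down, also rose with OVA, and the other 4 did not pass the test with OVA at either time. Rpl10l (chromosome 12, 66283379 to 66284401, minus strand) is a retrogene copy of Rpl10 known for its role in the testis. Rpl39l (chromosome 16, 10170228 to 10174911, plus strand) is a paralog of Rpl39, of the exit tunnel, also best known from the testis. Rpl32l and Rpl14-ps1 complete the 4. The first 150 bases of the Rpl10l and Rpl10 coding sequences and the whole coding sequences of Rpl39l and Rpl39 (GENCODE vM21) are shown to give the distance between copy and parent, with the bases that differ in capitals.
Rpl10l: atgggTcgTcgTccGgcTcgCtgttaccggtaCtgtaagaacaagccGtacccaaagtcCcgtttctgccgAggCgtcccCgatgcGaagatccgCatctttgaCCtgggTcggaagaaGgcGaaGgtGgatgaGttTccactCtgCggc
Rpl10: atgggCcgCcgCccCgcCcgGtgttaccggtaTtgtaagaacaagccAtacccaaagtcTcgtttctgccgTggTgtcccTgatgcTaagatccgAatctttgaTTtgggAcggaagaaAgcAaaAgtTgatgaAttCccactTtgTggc
Rpl39l: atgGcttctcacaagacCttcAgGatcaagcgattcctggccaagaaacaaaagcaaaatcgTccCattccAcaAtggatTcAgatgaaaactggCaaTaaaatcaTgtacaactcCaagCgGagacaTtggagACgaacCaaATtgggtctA
Rpl39: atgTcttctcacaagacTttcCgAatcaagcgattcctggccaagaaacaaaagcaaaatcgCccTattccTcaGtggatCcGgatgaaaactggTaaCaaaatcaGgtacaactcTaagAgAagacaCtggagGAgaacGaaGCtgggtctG
Over the 642 bases of the coding sequence Rpl10l was 84.7% identical to Rpl10, with no identical run over 23 bases. Rpl39l differed from Rpl39 at 23 of 153 bases, with a longest identical run of 38.

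Rpl10l had 0 counts in each of the 18 libraries without Jurkat cells. With Jurkat cells it had 109, 126 and 124 counts at 30 min and 310, 197 and 257 at 4 h in WT, and 79, 83 and 52 and then 166, 216 and 169 in KO. Against a floor of 3 counts over the untreated group it was at least 117-fold higher at 30 min and at least 341-fold higher at 4 h in WT, and at least 74.3-fold and 236-fold higher in KO. Rpl10 itself fell by 0.16 in WT at 4 h (FDR 0.00107) and by 0.21 in KO (FDR 3.5e-05). Rpl32l went from 17 counts over the 3 untreated WT libraries to 369 at 30 min and 673 at 4 h, or 21.3-fold (95% counting interval 13.1 to 36.9) and 53.0-fold (32.8 to 91.5) after scaling. In KO it was 12.1-fold and 31.5-fold higher. Rpl39l stood at 1.31, 1.01 and 1.04 CPM in untreated WT, 6.50, 6.71 and 5.15 CPM at 30 min and 16.3, 11.6 and 17.1 CPM at 4 h. In KO it stood at 1.55, 1.74 and 1.34 CPM, then 5.16, 5.10 and 3.65 CPM, then 8.56, 11.2 and 9.97 CPM. Its log2 fold change at 4 h was 3.74 in WT and 2.68 in KO, a difference of -1.06 between genotypes (SE 0.238, FDR 0.0103). Rpl14-ps1 stood at 4.16 to 5.63 CPM in untreated WT and 9.45 to 10.9 CPM at 4 h, and at 4.96 to 5.85 and 6.84 to 8.74 CPM in KO. The difference between its responses at 4 h was -0.63 (SE 0.147, FDR 0.0146).

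Rpl10l, Rpl32l and Rpl39l were below WT in the KO means when Jurkat cells were present. The ratio of KO to WT levels was 0.605 at 30 min and 0.670 at 4 h for Rpl10l, 0.650 and 0.674 for Rpl32l, and 0.758 and 0.660 for Rpl39l. For Rpl14-ps1 it was 0.982 and 0.750. Of the 15 rows set apart and tested, 4 were lower in KO than in WT at 4 h, or 26.7%, where 13.5% of all genes were lower. Rpl10l, Rpl32l and Rpl39l were among the 4, with edgeR FDRs of 0.0182, 0.0118 and 8.7e-04. Of these 3 genes, Rpl10l and Rpl32l lost their calls without some single libraries. Many T-lineage genes moved with them, but not all: of 23 tested 20 rose and 3 fell in WT at 4 h, and 17 rose and 4 fell in KO. Among 24 such genes 13 were under 1 CPM in untreated cells, and their sum was 2.67 to 4.44 CPM in the 18 libraries without Jurkat cells. Choosing low genes makes a rise of this sum more likely. Of those left out, Lck went from 2.84 CPM in untreated WT to 43.4 CPM at 4 h, and Cd28 from 52.9 to 23.0 CPM. With Jurkat cells it was 39.7 to 41.6 CPM in WT and 19.0 to 28.8 CPM in KO at 30 min, and 86.1 to 115 CPM in WT and 63.8 to 82.5 CPM in KO at 4 h. Cd3e, a defining T-cell gene, went from 0.078 CPM in untreated WT to 6.09 CPM at 4 h, while Cd3d was at 0.11 CPM and then 0.039 CPM. The ratio of the sums, KO to WT, was 0.627 at 30 min and 0.684 at 4 h. The part of Jurkat RNA in the counts of these copies was not tested, and human sequence was not analysed here. For the summed canonical genes the ratio was 0.973 and 0.969.

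**Figure D5:**
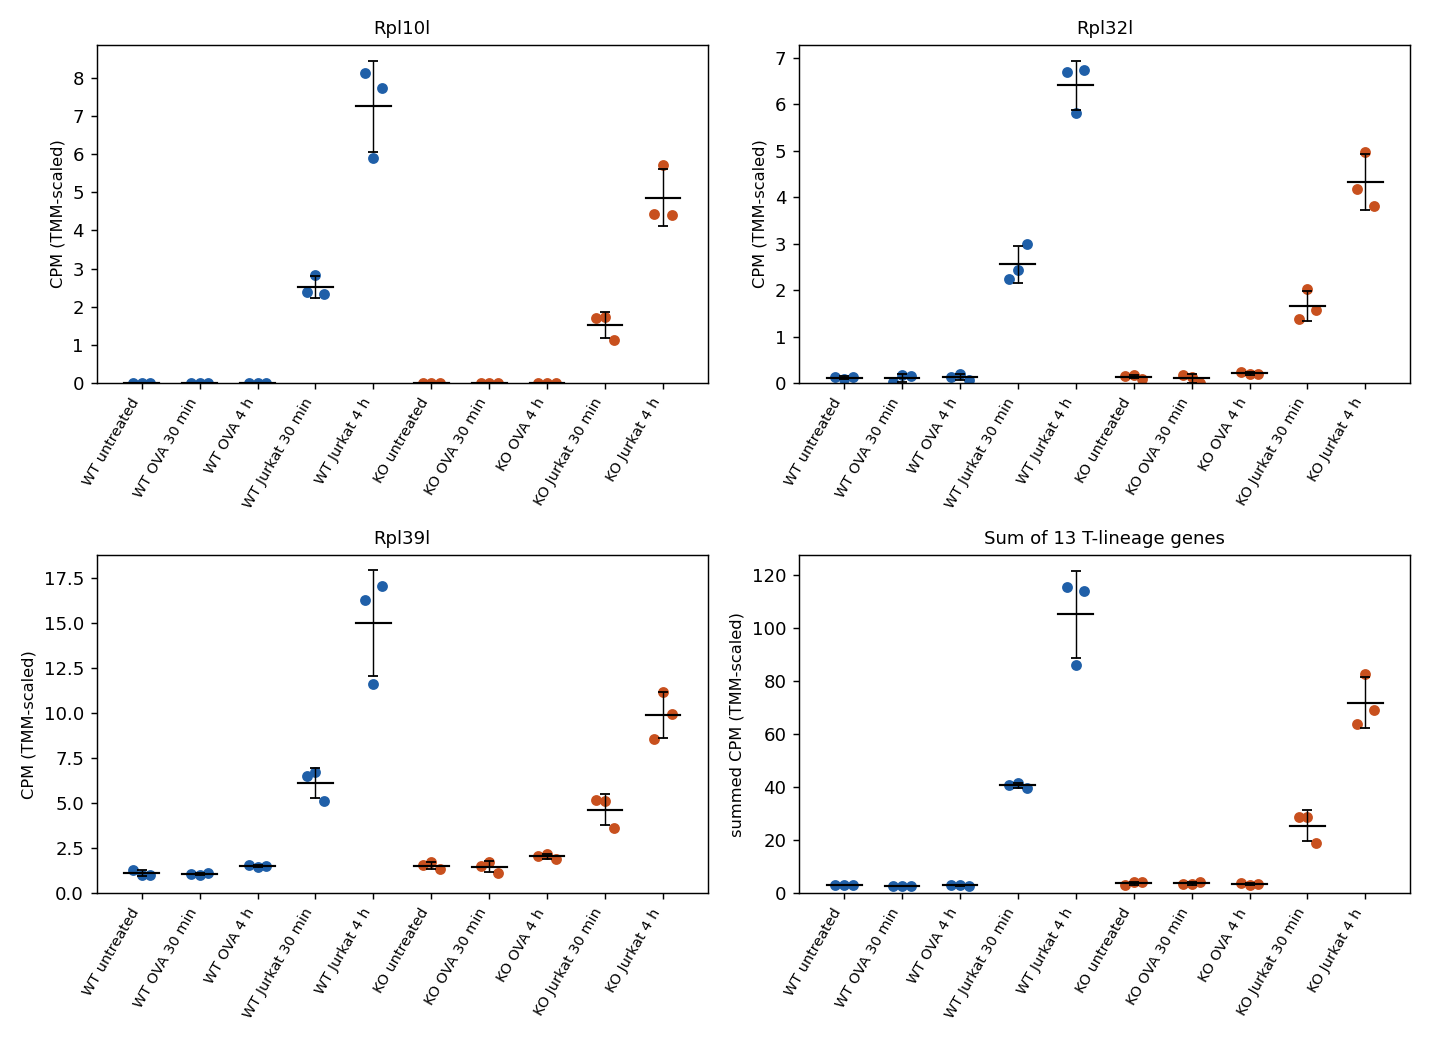
TMM-scaled levels (CPM) of Rpl10l, Rpl32l and Rpl39l and the summed level of 13 T-lineage genes in each library, by group (WT blue, KO orange); bars are means and error bars SDs over 3 libraries. All 4 panels are low without Jurkat cells and rise from 30 min to 4 h with them, with KO means below WT means; Rpl10l is at 0 in all 18 libraries without Jurkat cells.

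The other rows set apart behaved differently from each other. Rps27l, a paralog of Rps27 known as a p53 target, rose at 4 h of Jurkat cells from 77.8, 81.2 and 77.2 CPM to 111.9, 112 and 116 CPM in WT (log2 fold change 0.52, SE 0.0558, FDR 1.1e-09). In KO it rose from 80.8, 80.2 and 78.0 CPM to 111, 116 and 122 CPM (0.55, FDR 4.8e-10). It also rose with OVA at 4 h in WT (0.28, FDR 4.4e-04). Rpl7l1, known from ribosome assembly, rose by 0.18 in WT and 0.19 in KO at 4 h of Jurkat cells, and had -0.22 and -0.15 under total counts. Rps19-ps3 fell by 0.85 and 1.31 at about 1 CPM. Rpl36al, an expressed retrocopy of Rpl36a, fell by 0.12 in WT at 4 h of Jurkat cells, a call lost with DESeq2's size factors (-0.054, FDR 0.251), DESeq2's test (FDR 0.276), the 5 CPM filter (FDR 0.178) and the compared groups alone (FDR 0.0573). It rose by 0.17 in KO with OVA at 4 h. Rpl37rt fell by 0.27 in KO at 4 h of Jurkat cells (FDR 0.0128). Rpl22l1, a paralog of Rpl22 that was 70.2% identical to it in coding sequence, rose with OVA at 4 h in WT (0.27, FDR 0.0267) and with Jurkat cells at 30 min (0.23, FDR 0.0466). Rps4l rose by 0.43 in WT with Jurkat cells at 4 h at 1.85 to 2.62 CPM (FDR 0.0123), but by total counts it had 0.035 (FDR 0.842). The muscle paralog Rpl3l, Rps15a-ps4 and Rps15a-ps6 stayed under 0.4 CPM in all libraries, and Rps15a-ps6 was called only between Jurkat cells and OVA at 4 h (-1.05, FDR 0.0116). Rps19bp1, at 15.1 to 19.6 CPM, was called in no comparison.

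Genes outside the set but of the same pathway were described from lists. Of 4 ribosomal proteins tested under other symbols, Rpsa (-0.23 and -0.37) and Rack1 (-0.13 and -0.28) fell in WT and KO at 4 h of Jurkat cells, and 1 of the 4 rose in KO. Of all genes 40.6% fell and 38.9% rose in WT, and 41.0% and 37.5% in KO, against which the next counts are to be read. Of 15 other mRNAs with a TOP tract 10 fell and 2 rose in WT, and 12 fell and 1 rose in KO, with medians of -0.23 and -0.29. Eif4b, a helicase cofactor of initiation, fell by 0.91 and 0.99, and Eef2, the translocation factor, fell by 0.52 and 0.59. Of 40 genes of ribosome assembly and RNA polymerase I 17 rose and 13 fell in each genotype, a share called near that of all genes. Wdr43 (0.77 in WT and 0.65 in KO) and Ltv1 (0.77 and 0.67), which act in small-subunit assembly, rose, and Polr1d, a shared subunit of RNA polymerases I and III, fell by 0.51 and 0.53. At 30 min of Jurkat cells 18 assembly genes rose and 2 fell in WT, and 11 rose and 1 fell in KO, where 14.2% and 8.72% of all genes rose and 14.5% and 8.26% fell. With OVA in WT 9 assembly genes rose at 30 min and 18 at 4 h, and none fell. Of all genes 5.51% and 11.9% rose there. In KO 4 rose and none fell at 30 min of OVA, and 3 rose and 2 fell at 4 h. Of all genes 1.88% and 5.94% rose there. Of the 15 other TOP mRNAs 3 fell in WT and 5 in KO at 4 h of OVA, and none rose. Of all genes 11.7% and 5.69% fell there. Of 19 genes of growth control 8 rose and 8 fell in WT at 4 h of Jurkat cells, and 7 and 9 in KO. The MYC antagonist Mxd1 rose by 3.88 in WT and 3.59 in KO at 4 h of Jurkat cells. Larp1, which binds TOP mRNAs, rose by 1.46 and 1.31, Max rose by 1.52 and 1.36, and Eif4ebp2, a repressor of initiation, fell by 1.31 and 1.23.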

How the data were processed

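The authors deposited raw counts of reads for each gene as whole numbers, beside its symbol, Entrez identifier and mm10 interval, per the file headers. STAR 2.5, Subread, featureCounts 1.5.0-p1, DESeq2 and mm10 are named in the submitters' processing notes, without their roles. Not given in the sources used here: the annotation, the use of strand, and how shared or human reads were handled. RNA was taken with Trizol and a column, and libraries were made with a TruSeq RNA v2 kit, per the labels' protocols.

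Genes were kept with filterByExpr, which left 14808 genes, and levels are CPM on TMM-scaled library sizes. Groups were tested with the quasi-likelihood F test of edgeR (edgeR 4.0.16, limma 3.58.1, R 4.3.3), two-sided, in 1 model of 30 libraries and 16 contrasts, with Benjamini-Hochberg FDR under 0.05 over all genes tested. The SE was taken as the absolute log2 fold change over the root of F. The code was tested on simulated data. Intervals and floors cover counting error only. Libraries held 9734778 to 51642601 counts, and counting error is largest for the canonical genes Rpl26, Rpl30, Rps27 and Rpl34.

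Alternatives were DESeq2's size factors, total counts, TMM factors without the set, no filter on low counts, a filter of at least 5 CPM in 3 libraries, the compared groups alone, a block for the replicate number, DESeq2 1.42.0 and leaving out each library. The set, the gene lists and the rules were chosen with earlier results of these data known. Genes were named by the largest changes without overlap in each comparison, the highest and lowest levels, stalk genes, Rps6 and copies with parents, and up to 4 of each list by smallest p. Rpl32l and Rpl37rt joined the rows set apart after the symbols of the table were seen. Promoter sequences are from RefSeq (GRCm38.p6) and coding sequences from GENCODE vM21. Same-numbered libraries of untreated WT and KO deviated together (correlations 0.27, 0.15 and 0.11); no label says what a number marks. Some named genes are not reported here. Of 76 canonical genes 76 had a transcript and 56 a promoter.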

Additional observations from a re-analysis of the deposited data

Results flagged for a closer look

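Rpl39l responded differently to Jurkat cells at 4 h in the 2 genotypes, by a test of the difference itself. The difference of log2 fold changes, KO minus WT, was -1.06, with 3.74 in WT and 2.68 in KO, and the level rose in all libraries of both. The gap in untreated cells, with low means of 1.12 CPM in WT and 1.55 CPM in KO, is part of this difference. At 4 h of Jurkat cells the ratio of KO to WT levels was 0.660. Rpl14-ps1 also responded differently, by -0.63 (-0.6250), with 1.15 in WT and 0.52 in KO. Its call was lost in a fit of the compared groups alone (-0.58, edgeR FDR 0.0829), and its KO rise was 0.18 (FDR 0.118) under total counts. KO library 2 of Jurkat cells at 4 h, which stood apart from its replicates, is among these libraries. The sum of 13 T-lineage genes rose in the same libraries and was also lower in KO, and the part of these genes was not tested. For Rpl10l, at 0 in untreated cells of both genotypes, this difference could not be estimated.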

How the results depend on the processing

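Of 128 counts of canonical genes called under another setting, 109 stayed within 1.5 times the reported count. This compares totals without their direction, and a 0 that stayed 0 is among the 109. KO against WT at 4 h of Jurkat cells is also among them under total counts, although 3 lower genes became 4 higher ones. KO against WT in untreated cells (1 reported) gave 0 with DESeq2's size factors and 0 in a fit of the compared groups alone. At 30 min of OVA (5) it gave 2 with DESeq2's size factors, 9 with total counts, 9 with at least 5 CPM in 3 libraries and 8 with the compared groups alone. At 30 min of Jurkat cells (6) the compared groups alone gave 3, and at 4 h of OVA (0) they gave 3. At 4 h of Jurkat cells (3) the counts were 7 with DESeq2's size factors, 1 without a filter, 1 with the compared groups alone and 10 with DESeq2's test. Against untreated cells, OVA at 4 h in WT (11) gave 4 with total counts and 17 with the compared groups alone, and in KO (4) 9 with the compared groups alone and 7 with DESeq2's test. Jurkat cells in WT gave 11 at 30 min (24) with the compared groups alone and 72 at 4 h (42) with total counts. The genotype difference at 4 h of Jurkat cells (0) gave 2 with DESeq2's test. The cause of these shifts was not tested.

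Leaving out single libraries gave 0 to 1 for KO against WT in untreated cells, 0 to 10 and 0 to 12 at 30 min of OVA and Jurkat cells, and 0 to 3 at 4 h of Jurkat cells. It gave 1 to 14 and 2 to 3 for OVA at 4 h in WT and KO, 6 to 38 for Jurkat cells at 30 min in WT, 34 to 42 and 45 to 53 at 4 h in WT and KO, and 59 to 65 against OVA. Of 83 calls of single genes 57 held without any 1 library. Under total counts Rplp2 turned to -0.076 in WT, -0.19 in KO and -0.17 against OVA, Rpl7l1 to -0.22, -0.15 and -0.23, and, against OVA, Rps27l to -0.045 and Rps4l to -0.095, where the median of all genes was -0.42 in WT, -0.37 in KO and -0.40 against OVA.

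Correlations of same-numbered deviations ran from -0.19 to 0.36 over 39 pairs, and 16 of 39 libraries correlated best with their own number. All 3 were over 0.1 in 1 of 13 pairs of groups, untreated WT and KO (0.27, 0.15 and 0.11), where the replicate block left the count at 1 and the call of Rplp2 in place. The other 12 pairs of groups did not pass this cut. Even so, each untreated WT library correlated best with its own number among the WT Jurkat 30 min libraries (0.17, 0.071 and 0.17). The same held among the WT OVA 4 h libraries (0.16, 0.039 and 0.10). Library 3 of untreated WT did not correlate best with its own number in untreated KO. Whether numbers pair the samples in these comparisons therefore remains uncertain. With the replicate block the counts at 4 h of Jurkat cells were 42 in WT and 50 in KO, and no count moved by over 1.5 times. Levels near 1 CPM, and the uncertain Rpl26, Rpl30, Rps27 and Rpl34, limit what depth can show.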
